A study of Mus musculus with 29 samples.

Results

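The globin genes Hba-a1, Hba-a2, Hba-x, Hbb-b2, Hbb-bt, Hbb-bh1 and Hbb-y were examined with Bcl11a, a repressor of embryonic globin genes. They were found by matching the Entrez identifiers of the count files to mouse symbols, and these 8 genes were 8 of 18834 in the files. Red cells carry oxygen on hemoglobin, a tetramer of alpha-type and beta-type globin chains. The mouse makes embryonic chains first, zeta from Hba-x and the embryonic beta-type chains from Hbb-y and Hbb-bh1, and then switches to the adult alpha genes (Hba-a1, Hba-a2) and the adult beta genes. The adult beta genes are named Hbb-bs and Hbb-bt in the single haplotype and Hbb-b1 and Hbb-b2 in the diffuse haplotype. Bcl11a keeps the embryonic beta-type genes off in adult erythroid cells, together with chromatin-modifying corepressors.

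RNA was sequenced from megakaryocyte-erythrocyte progenitors (MEPs), sorted blood progenitors that give rise to red cells and platelets and precede most globin synthesis. All 29 libraries carried a Cre transgene, so no group was free of it. It was written ScleCre in the 13 libraries without V617F and SclCre in the 16 with it. Whether the spellings name different lines was not given, so any such difference cannot be told apart from V617F. Ezh2, the histone methyltransferase of Polycomb repressive complex 2, was +/+, +/- or -/-, with or without JAK2 V617F, an activating mutation of the cytokine receptor kinase JAK2 found in myeloproliferative neoplasms. The groups were Ezh2 +/+ (n = 5, 3 female and 2 male), Ezh2 +/- (n = 4, 2 female and 2 male), Ezh2 -/- (n = 4, 3 female and 1 male), V617F with Ezh2 +/+ (n = 4, 3 female and 1 male), V617F with Ezh2 +/- (n = 6, all female) and V617F with Ezh2 -/- (n = 6, all female). Each library came from 230000 sorted cells. The animals' ages, the sort gates, the part of Ezh2 that was deleted and the time and cells in which the Cre acted were not given in the sources used here. Samples are called replicates with no word on separate animals, so a p-value reflects only how far these samples spread, which may be technical.

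Total counts ran from 31.6 to 59.4 M per library, and a floor of 3 counts was worth 0.0505 to 0.095 CPM, counts scaled to library size and given per M. Ezh2 itself followed the labels, with 269 to 319 CPM in Ezh2 +/+, 188 to 197 in Ezh2 +/- and 67.9 to 79.5 in Ezh2 -/- without V617F, and with 244 to 313, 148 to 205 and 51.2 to 59.5 CPM with V617F. All 27 erythroid genes of a fixed reference list had counts in every library, as did all 15 early progenitor genes. Ezh2 +/+ replicate 5 and Ezh2 +/- replicates 2 and 5 stood apart in summed lineage markers. Their granulocyte markers summed to 347, 344 and 225 CPM, against 39.2 to 107 CPM in the other 6 libraries of their groups. Granulocyte sums also spread widely with V617F, at 350 to 1847 CPM in V617F Ezh2 +/- and 136 to 1382 CPM in V617F Ezh2 -/-. In these bulk samples, fewer cells of a type and less RNA per cell cannot be told apart.

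Hba-a1 and Hba-a2 had the same count in 29 of 29 libraries, and so had Hbb-b2 and Hbb-bt. Each pair therefore gives a single measurement, called adult alpha globin and Hbb-b2/Hbb-bt below, and reads of the 2 genes of a pair were not told apart. The 8 genes thus gave 6 distinct profiles. Hbb-b1 and Hbb-bs, the other adult beta names in the files, agreed in 27 of 29 libraries and differed by 1 count at most in the other two, and they are given as Hbb-bs. The labels do not say how near-identical copies shared reads, so the split between Hbb-bs and Hbb-b2/Hbb-bt is uncertain.

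The promoters are shown because they set the adult copies beside the embryonic genes. RefSeq start sites of GRCm38.p6 gave windows for 6 of the 8 genes (none for Hbb-b2 and Hbb-bh1). The 200 bases before the start site are shown for the adult alpha, embryonic alpha, adult beta and embryonic beta genes, as the coding strand. These are Hba-a1 at chr11:32283472-32283671 on the plus strand, Hba-x at chr11:32276400-32276599 on the plus strand, Hbb-bt at chr7:103813924-103814123 on the minus strand and Hbb-y at chr7:103853208-103853407 on the minus strand. Capitals mark the words CCAAT (the CCAAT box), CACCC (the CACCC box), GATAA (part of the GATA factor motif), TGACCA (a word known from Bcl11a binding) and ATAAA (the TATA-like box of globin genes), found on either strand.
Hba-a1: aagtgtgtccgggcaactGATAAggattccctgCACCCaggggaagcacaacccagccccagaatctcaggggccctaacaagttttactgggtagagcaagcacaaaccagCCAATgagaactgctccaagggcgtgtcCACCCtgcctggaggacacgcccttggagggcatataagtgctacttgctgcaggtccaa
Hba-x: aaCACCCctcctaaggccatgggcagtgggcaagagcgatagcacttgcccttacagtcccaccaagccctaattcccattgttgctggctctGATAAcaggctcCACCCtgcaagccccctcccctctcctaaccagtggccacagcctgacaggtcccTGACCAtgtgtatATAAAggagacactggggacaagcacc
Hbb-bt: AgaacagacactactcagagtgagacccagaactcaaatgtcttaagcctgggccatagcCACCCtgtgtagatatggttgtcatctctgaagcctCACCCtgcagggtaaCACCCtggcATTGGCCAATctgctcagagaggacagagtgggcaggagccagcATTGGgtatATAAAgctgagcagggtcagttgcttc
Hbb-y: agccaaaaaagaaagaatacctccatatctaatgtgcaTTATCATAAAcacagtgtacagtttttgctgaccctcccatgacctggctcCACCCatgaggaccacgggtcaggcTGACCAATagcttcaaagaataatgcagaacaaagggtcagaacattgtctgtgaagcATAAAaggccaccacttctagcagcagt
The first base of the Hbb-bt window closes a GATAA that begins outside it. The Hba-a2 window matched that of Hba-a1 at 247 of 247 bases when shifted by 3 bases. TGACCA stood at position -40 of Hba-x and -86 of Hbb-y, where it overlaps CCAAT, and in none of the windows of Hba-a1, Hba-a2, Hbb-bt, Hbb-bs and Bcl11a. Over 32851 promoter windows of 250 bases, 11.4% held TGACCA, 33.8% CCAAT, 52% CACCC, 22.6% GATAA and 37.3% ATAAA. The globin windows held 0 to 4 CpG dinucleotides and that of Bcl11a held 16, against a median of 6 over all windows. A word match is a description of the letters and shows no bound factor.

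Globin RNA was low in these progenitors. Adult alpha, Hbb-b2/Hbb-bt and Hbb-bs together took 0.00483 to 0.0474% of a library's counts. Adult alpha globin ran from 14.4 to 149 CPM over the 29 libraries (median 39), a 10.3-fold range. Hbb-b2/Hbb-bt ran from 14 to 80.8 CPM (median 28.2), a 5.78-fold range, and Hbb-bs from 19.3 to 249 CPM (median 47.6). Bcl11a was the steadiest, at 219 to 296 CPM (median 258), a 1.35-fold range. Per kilobase of the gene length given in the files (RPKM computed here), the medians were 74.4 for Hbb-bs, 44.8 for Hbb-b2/Hbb-bt, 36.8 for Bcl11a and 34.9 for Hba-a1. The lengths were 639 bases for Hbb-bs, 630 for Hbb-b2/Hbb-bt, 7017 for Bcl11a and 1118 for Hba-a1, and the order depends on them. On that per-length scale the order was Hbb-bs above Hbb-b2/Hbb-bt in 28 of 29 libraries, while Bcl11a lay within the range of adult alpha globin (31.3 to 42.2 against 12.9 to 133). The embryonic genes lay far below, with 118 Hba-x counts, 49 Hbb-y counts and 7 Hbb-bh1 counts summed over all libraries. Of the 6 distinct profiles, 4 passed the filter on low counts, and Hba-x passed it only because 5 libraries, all Ezh2 -/-, reached 0.224 CPM.

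Hba-x, the embryonic zeta globin, was present above a few counts only where Ezh2 was -/-. The 5 Ezh2 +/+ libraries held 0, 1, 0, 0 and 1 Hba-x counts and the 4 Ezh2 +/- libraries held 2, 2, 1 and 0. The 4 Ezh2 -/- libraries held 24, 5, 17 and 12 counts, all above both other groups. Mean levels were 0.00784 ± 0.0110 CPM (SD, n = 5) in Ezh2 +/+ and 0.290 ± 0.159 CPM (n = 4) in Ezh2 -/-. The summed ratio was 33.8, with an exact 95% counting interval of 8.93 to 285 that covers counting error only. In edgeR's quasi-likelihood test the log2 fold change of Hba-x was 4.69 ± 0.76 (SE, adjusted p = 5.55e-05). It was the only profile called of the 4 tested in this comparison, in which 11.5% of 13928 genes were higher and 12.2% lower. Since Hba-x passed the filter only through Ezh2 -/- libraries, it could enter the test only by being high there. Without the filter, over 18834 genes, its log2 fold change was 4.68.

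With V617F the same gene was again above all other genotypes. The 4 V617F Ezh2 +/+ libraries held 2, 2, 1 and 0 Hba-x counts, and the 6 V617F Ezh2 +/- libraries held from 0 to 2. The 6 V617F Ezh2 -/- libraries held from 4 to 11 counts (0.0844, 0.178 and 0.220 CPM as lowest, median and highest). Hba-x was higher than in V617F Ezh2 +/+ by a log2 of 2.38 ± 0.71 (edgeR adjusted p = 0.0170), in a comparison in which 13% of genes were higher and 13.6% lower, and the summed ratio was 5.64 (2.24 to 18.2). Here too Hba-x could enter the filtered test only by being high in Ezh2 -/- libraries. Without the filter, over 18834 genes, its log2 fold change was 2.38 (edgeR adjusted p = 0.0220). With the filter, the call ended without V617F Ezh2 +/+ replicate 4, which held 0 counts (log2 1.97, adjusted p = 0.0786), and in female libraries alone (log2 2.26, adjusted p = 0.0662). Summed over all 10 Ezh2 -/- libraries there were 102 Hba-x counts, at least 4 in each, against 16 in the other 19 libraries, at most 2 in each.

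The level reached was small beside the adult genes. Per base of gene length, Hba-x reads were 1.14% of adult alpha reads in Ezh2 -/- and 0.878% in V617F Ezh2 -/-. These shares depend on the lengths in the files, 600 bases for Hba-x and 1118 for Hba-a1. As plain counts they were 58 against 9489 and 44 against 9343. In Ezh2 +/+ the per-base share was 0.0214%, and in V617F Ezh2 +/+ 0.156%. Between the Ezh2 -/- groups, Hba-x was lower with V617F by a log2 of -0.80 ± 0.51, which did not pass (edgeR adjusted p = 0.202). The interaction of V617F with Ezh2 -/- for Hba-x was -2.31 ± 1.19 (adjusted p = 0.150), so the V617F effect was not shown to differ between the Ezh2 genotypes. All 10 Ezh2 +/- libraries held at most 2 Hba-x counts, under the 3-count floor.

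**Figure D1:**
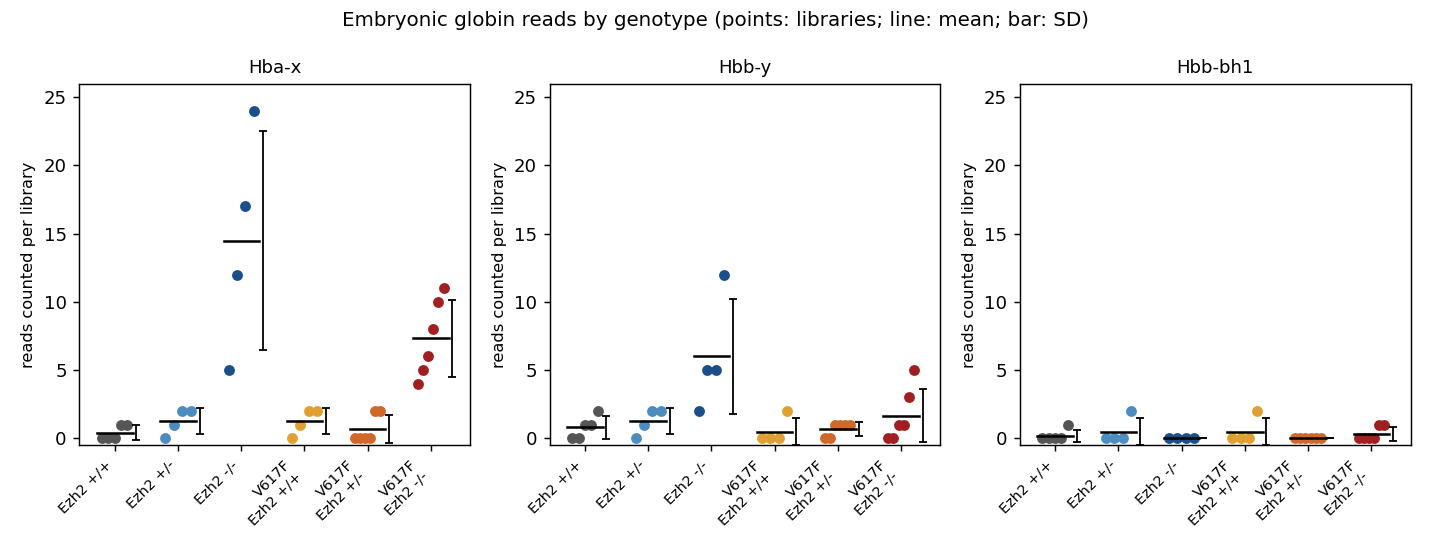
Counts of the embryonic globin genes by genotype, with libraries as points, the mean as a line and the SD as a bar. Every Ezh2 -/- library had at least 4 Hba-x counts and every other library at most 2, Hbb-y reached 12 counts in an Ezh2 -/- library, and Hbb-bh1 did not exceed 2 in any.

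Hbb-y, the embryonic epsilon-type beta gene, was too low for the filtered fit. Its counts were 0, 1, 2, 1 and 0 in Ezh2 +/+, 1, 2, 0 and 2 in Ezh2 +/-, and 5, 2, 5 and 12 in Ezh2 -/-. The lowest Ezh2 -/- library thus held as many counts as the highest of the other genotypes. The summed ratio of Ezh2 -/- to Ezh2 +/+ was 6.98 (counting interval 2.40 to 27.7). In the edgeR fit of all 18834 genes, of which 8.14% were higher, Hbb-y was higher by a log2 of 2.62 ± 0.83 (adjusted p = 0.0310). The call ended without Ezh2 +/+ replicate 1 (adjusted p = 0.0791), 2 (0.0527) or 5 (0.0852), without Ezh2 -/- replicate 3 (0.0521) or 4 (0.243), in female libraries alone (0.290), without the 3 libraries that stood apart (0.0920) and in DESeq2 (0.0641).

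With V617F, Hbb-y showed no call. The V617F Ezh2 +/+ libraries held 0, 2, 0 and 0 counts, the V617F Ezh2 +/- libraries 0 or 1 each, and the V617F Ezh2 -/- libraries 0 to 5. The ratio of Ezh2 -/- to Ezh2 +/+ was 3.21 with an interval of 0.683 to 30.1, and the log2 fold change was 1.52 ± 1.07 (edgeR adjusted p = 0.355), where 9.43% of the 18834 genes were higher. The 5-count V617F Ezh2 -/- library was replicate 3, which also held the most Hba-x counts of its group. Hbb-bh1, the other embryonic beta-type gene, gave 1 or 2 counts in 5 libraries and none in 24. The 10 Ezh2 -/- libraries held 2 Hbb-bh1 counts together and the other 19 held 5. A difference in Hbb-bh1 was not detectable at this depth, and no fold is given.

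With Ezh2 loss and no V617F, the adult genes had lower means, and adult alpha globin and Hbb-b2/Hbb-bt did not pass the test. Adult alpha globin was 42.4, 76.2, 79.8, 45.3 and 108 CPM in Ezh2 +/+ and 55.3, 37, 59.6 and 37.1 CPM in Ezh2 -/-. These ranges overlapped (log2 -0.68 ± 0.33, edgeR adjusted p = 0.138). Hbb-b2/Hbb-bt was 19.8, 31.6, 41.3, 21 and 54.8 CPM in Ezh2 +/+ and 24.5, 18.7, 30.1 and 15.7 CPM in Ezh2 -/- (log2 -0.72 ± 0.30, adjusted p = 0.0836). It passed only when Ezh2 +/+ replicate 4 was left out (log2 -0.90, adjusted p = 0.0252).

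Hbb-bs, with a lower mean as well, passed the test. It was 46.5, 88.2, 111, 50.8 and 167 CPM in Ezh2 +/+ and 46.4, 33.8, 47.6 and 27.9 CPM in Ezh2 -/-, so that a single Ezh2 -/- library (replicate 3) reached the lowest control. Its log2 fold change was -1.38 ± 0.41 (edgeR adjusted p = 0.0172). The call ended without Ezh2 +/+ replicate 5 (log2 -1.18, adjusted p = 0.0615), without the 3 libraries that stood apart (-1.10, 0.0668), in female libraries alone (-1.36, 0.0918) and with no sex term (-1.25, 0.0555). Other lineage markers moved in the same comparison, in which 11.5% of all genes were higher and 12.2% lower. Lower were 5 of 18 monocyte, macrophage and dendritic genes, 6 of 15 T and NK cell genes and 5 of 18 megakaryocyte genes. No gene of these lists was higher. Of 15 early progenitor genes 5 were lower and 0 higher (median log2 -0.93), and of 14 B cell genes 1 was higher and 0 lower (median log2 1.37). No marker was at 0 in a whole group. The monocyte list summed to 203 to 614 CPM in Ezh2 +/+ and 98.3 to 148 CPM in Ezh2 -/-. Its part in the globin values was not tested.

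In V617F cells the loss of Ezh2 left the adult genes within their spread. Adult alpha globin was 45.2, 38.7, 25.9 and 32.5 CPM in V617F Ezh2 +/+ and 27.1, 31.9 and 49.5 CPM (lowest, median, highest) in V617F Ezh2 -/-, a log2 of -0.17 ± 0.32 (adjusted p = 0.728). Hbb-b2/Hbb-bt was 31.4, 28.2, 21.1 and 32.1 CPM and then 25.8, 33.1 and 44 CPM, a log2 of 0.08 ± 0.29 (adjusted p = 0.859). Hbb-bs was lower by -0.78 ± 0.39, which did not pass (adjusted p = 0.134). Among markers, 11 of 14 B cell genes were higher in this comparison, against 13% of all genes. The B cell list summed to 4.31 to 11.4 CPM in V617F Ezh2 +/+ and 9.03 to 92.7 CPM in V617F Ezh2 -/-.

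Ezh2 +/- gave no call for the globins or Bcl11a in either background, where 0.0144% (without V617F) and 0.00718% (with V617F) of all genes were called. Adult alpha globin was 54.3, 74.8, 48.6 and 149 CPM in Ezh2 +/-, and Hbb-b2/Hbb-bt was 27.8, 34, 17.9 and 80.8 CPM. The highest value of both genes came from Ezh2 +/- replicate 5, one of the libraries that stood apart. The log2 fold changes against Ezh2 +/+ were 0.20 ± 0.32 for adult alpha globin and 0.24 ± 0.29 for Hbb-b2/Hbb-bt, and they turned to -0.09 and -0.08 without the 3 libraries that stood apart. With V617F they were -0.36 ± 0.32 and -0.46 ± 0.29. No profile had an unadjusted p under 0.05 in edgeR, and DESeq2 also called 0.

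**Figure D2:**
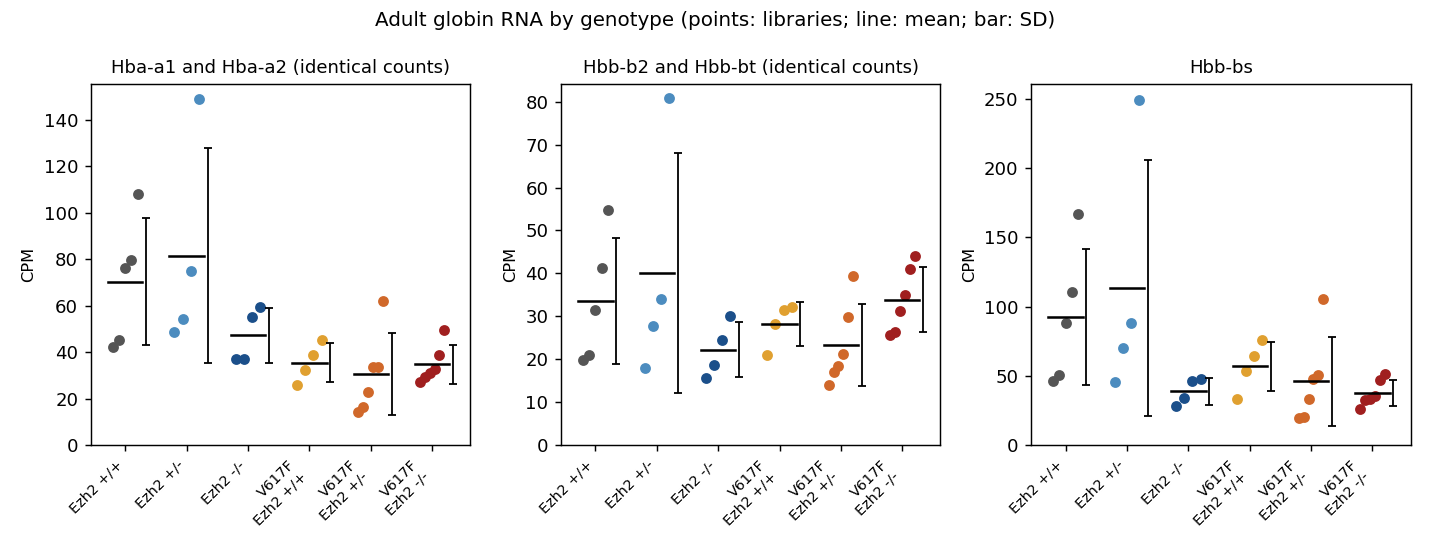
CPM of adult alpha globin, Hbb-b2/Hbb-bt and Hbb-bs by genotype, with libraries as points, the mean as a line and the SD as a bar. Adult alpha globin reached 42.4 to 149 CPM in the Ezh2 +/+ and Ezh2 +/- groups without V617F and 14.4 to 62.3 CPM in the same groups with it.

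Adult alpha globin was lower with V617F in Ezh2 +/+ and in Ezh2 +/- cells. In Ezh2 +/+ the mean was 70.4 ± 27.3 CPM (SD, n = 5) without V617F and 35.6 ± 8.27 CPM (n = 4) with it. The highest V617F library, at 45.2 CPM, lay above a single control library at 42.4 CPM. The log2 fold change was -1.09 ± 0.34 (edgeR adjusted p = 0.0198), in a comparison in which 23.6% of genes were called (9.73% higher and 13.9% lower), and adult alpha globin was 1 of 4 tested profiles and the one called. The call ended without Ezh2 +/+ replicate 2 (log2 -0.93, adjusted p = 0.0536) or 5 (-0.96, 0.0578), without V617F Ezh2 +/+ replicate 4 (-1.02, 0.0594), without the 3 libraries that stood apart (-0.86, 0.0818) and in female libraries alone (-1.01, 0.123). Hbb-b2/Hbb-bt did not pass (log2 -0.36 ± 0.30, adjusted p = 0.391), nor did Hbb-bs (-0.86 ± 0.41, 0.124).

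In Ezh2 +/- cells both adult profiles fell with V617F. Adult alpha globin went from 81.6 ± 46.2 CPM (n = 4) to 30.5 ± 17.6 CPM (n = 6), with 14.4, 28.3 and 62.3 CPM as lowest, median and highest with V617F. Its log2 fold change was -1.65 ± 0.32 (edgeR adjusted p = 0.00152) and stayed called whichever single library was left out, with -1.99 to -1.22 as the range. Hbb-b2/Hbb-bt went from 40.1 ± 27.9 to 23.3 ± 9.52 CPM (log2 -1.06 ± 0.29, adjusted p = 0.0201), and Hbb-bs fell by 1.61 on the log2 scale (SE 0.39, adjusted p = 0.00874). In this comparison 9.87% of genes were called, 6.51% lower and 3.35% higher, and 2 of the 4 tested profiles were called. All 3 adult profiles overlapped between the groups. V617F Ezh2 +/- replicate 6 was the highest with V617F in each, at 62.3 CPM of adult alpha globin, 39.4 CPM of Hbb-b2/Hbb-bt and 106 CPM of Hbb-bs.

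Several of these calls ended when libraries were left out. Without Ezh2 +/- replicate 5 the Hbb-b2/Hbb-bt value was -0.53 (adjusted p = 0.348) and the Hbb-bs value -0.98 (0.194). The Hbb-b2/Hbb-bt call also ended without V617F Ezh2 +/- replicate 3 (0.0510) or 4 (0.0507) and with no sex term (-0.79, 0.107). Without the 3 libraries that stood apart, which left 2 male Ezh2 +/- libraries against 6 female ones, the values were -1.05 (0.368) for adult alpha globin, -0.40 (0.712) for Hbb-b2/Hbb-bt and -0.85 (0.545) for Hbb-bs. Fitted to the compared groups alone, none of the 3 passed (adult alpha globin -1.87, adjusted p = 0.0588, Hbb-b2/Hbb-bt -1.30, 0.133).

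In Ezh2 -/- cells none of the members was called for V617F in edgeR or DESeq2 and none had an unadjusted p under 0.05 in edgeR, while 41.6% of all genes were called. Adult alpha globin was 47.2 ± 11.9 CPM (n = 4) without V617F and 34.8 ± 8.25 CPM (n = 6) with it (log2 -0.59 ± 0.32, adjusted p = 0.133). Hbb-b2/Hbb-bt was higher on average with V617F, at 33.9 ± 7.50 against 22.2 ± 6.39 CPM (log2 0.43 ± 0.29, adjusted p = 0.227). Hbb-bs was 37.6 ± 9.49 against 38.9 ± 9.62 CPM. The V617F effects in Ezh2 -/- and Ezh2 +/+ were not shown to differ, with interactions of 0.51 ± 0.45 (adjusted p = 0.413) for adult alpha globin and 0.80 ± 0.41 (0.151) for Hbb-b2/Hbb-bt, in a test that called 19.1% of genes. The interaction with Ezh2 +/- called 0% of genes and none of the members. In both interactions no member profile had an unadjusted p under 0.05 in edgeR, and DESeq2 called 0 of them.

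**Figure D3:**
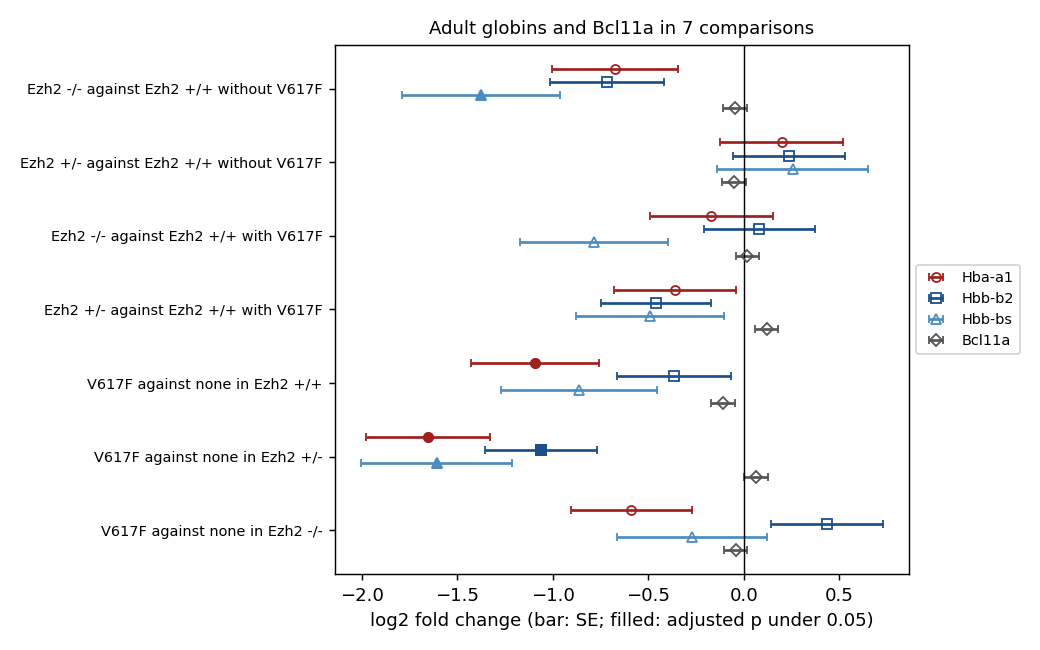
Log2 fold changes of adult alpha globin (Hba-a1), Hbb-b2, Hbb-bs and Bcl11a in the 7 comparisons between 2 groups, with the SE as bars and filled symbols for adjusted p under 0.05. The V617F comparisons in Ezh2 +/+ and Ezh2 +/- hold the lowest adult alpha values, -1.09 and -1.65, and Bcl11a stays between -0.11 and 0.12.

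Markers of other lineages differed with V617F beside the adult globins. In Ezh2 +/+, 14 of 16 granulocyte genes and 11 of 18 megakaryocyte genes were higher, against 9.73% of all genes. There, 15 of 18 monocyte, macrophage and dendritic genes and 12 of 15 T and NK cell genes were lower, against 13.9% of all genes. The granulocyte list summed to 50.9 to 347 CPM without V617F and to 683 to 1219 CPM with it, and the T and NK cell list to 73.7 to 248 CPM and 35.6 to 63.6 CPM. In Ezh2 +/-, 11 of 16 granulocyte and 8 of 18 megakaryocyte genes were higher and 0 lower, against 3.35% of all genes higher. Of the monocyte, macrophage and dendritic genes 15 of 18 were lower and 1 higher. Of the T and NK cell genes 13 of 15 were lower and 0 higher, against 6.51% of all genes lower. The granulocyte list there summed to 39.2 to 344 CPM without V617F and 350 to 1847 CPM with it. In Ezh2 -/- no adult globin was called. There, 16 of 16 granulocyte and 18 of 18 megakaryocyte genes were higher with V617F, against 19.1% of all genes. Of 15 early progenitor genes 11 were higher and 0 lower. The megakaryocyte list summed to 137 to 198 CPM without V617F and 1119 to 1745 CPM with it. None of these markers was at 0 in all libraries of a group. The summed erythroid reference list overlapped in Ezh2 +/+, at 8981 to 11622 CPM without V617F and 8837 to 11660 CPM with it. It also overlapped in Ezh2 +/-, at 9665 to 12972 CPM and 7586 to 13279 CPM. In Ezh2 -/- it did not overlap, at 10917 to 12153 CPM without V617F and 7072 to 9057 CPM with it. The part of these other cells' RNA in the globin values was not tested.

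The proportions among the adult genes differed with genotype. These ratios of counts were chosen after their values were seen, rest on near-identical copies and are given with no test. Adult alpha globin counts (Hba-a1) were 1.84 to 2.71 times the Hbb-b2/Hbb-bt counts in the 13 libraries without V617F and 0.842 to 1.58 times in the 16 libraries with it, with no overlap. Within genotypes the medians were 2.15, 2.08 and 2.12 in Ezh2 +/+, +/- and -/- without V617F and 1.30, 1.21 and 1.05 with it. The ratio of adult alpha globin to Hbb-bs separated the backgrounds less, at 0.597 to 1.33 without V617F and 0.589 to 1.03 with it.

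Between the adult beta genes, Ezh2 -/- libraries stood higher in the ratio of Hbb-b2/Hbb-bt to Hbb-bs. It was 0.329 to 0.425 in Ezh2 +/+, 0.324 to 0.398 in Ezh2 +/- and 0.528 to 0.633 in Ezh2 -/-. With V617F it was 0.414 to 0.627 in Ezh2 +/+, 0.372 to 0.849 in Ezh2 +/- and 0.816 to 1.04 in Ezh2 -/-. The Ezh2 -/- libraries lay above the Ezh2 +/+ libraries of the same V617F status in every case, and a single V617F Ezh2 +/- library, replicate 4, reached into the V617F Ezh2 -/- range. Whether the change of Hbb-bs differs from that of Hbb-b2/Hbb-bt was not tested.

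**Figure D4:**
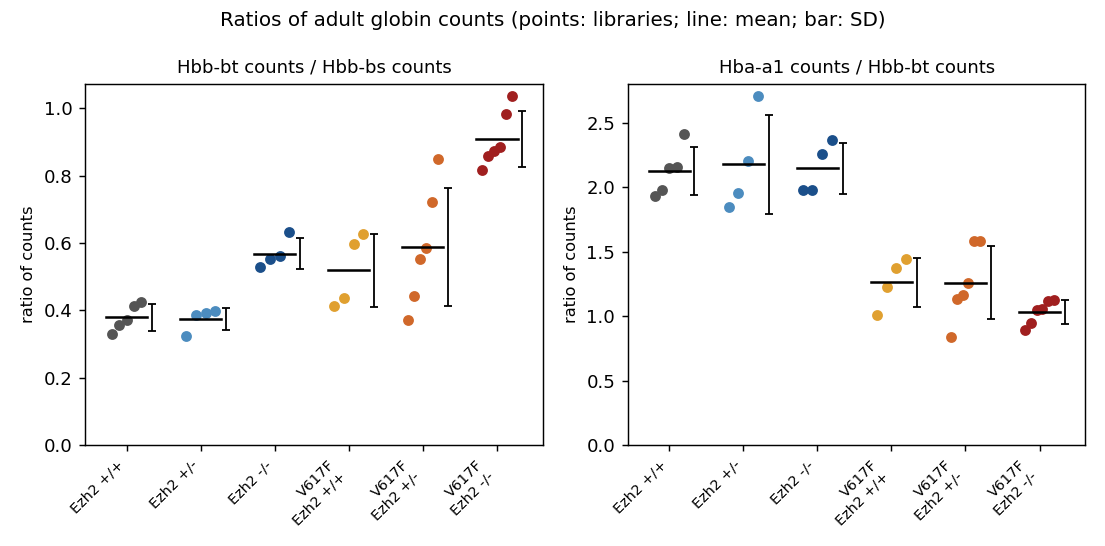
Ratios of adult globin counts by genotype, with libraries as points, the mean as a line and the SD as a bar. The ratio of adult alpha globin to Hbb-b2/Hbb-bt lies at 1.84 to 2.71 without V617F and at 0.842 to 1.58 with it, and the ratio of Hbb-b2/Hbb-bt to Hbb-bs is highest, at 0.816 to 1.04, in V617F Ezh2 -/-.

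Bcl11a was called in no comparison. Its mean was 270 ± 18.7 CPM in Ezh2 +/+, 262 ± 16.1 in Ezh2 +/- and 257 ± 19.7 in Ezh2 -/-. With V617F the means were 247 ± 30.2, 261 ± 17.6 and 244 ± 9.44 CPM. All groups overlapped, and no order among neighbouring groups exceeded their spread. The log2 fold changes lay between -0.11 ± 0.06 (V617F in Ezh2 +/+, adjusted p = 0.206) and 0.12 ± 0.06 (Ezh2 +/- with V617F, adjusted p = 0.825). In Ezh2 -/- cells, where Hba-x was higher, the Bcl11a change was -0.05 ± 0.06 (adjusted p = 0.611) without V617F and 0.02 ± 0.06 (0.841) with it. The deposited counts give RNA per gene, so Bcl11a isoforms and protein were not measured.

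**Figure D5:**
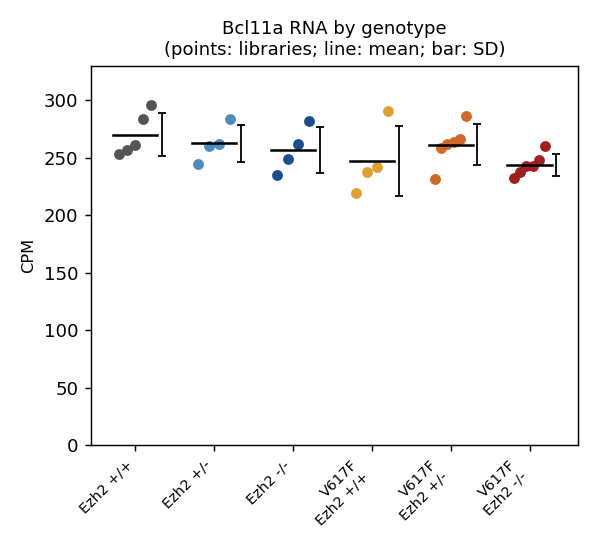
CPM of Bcl11a by genotype, with libraries as points, the mean as a line and the SD as a bar. All 29 libraries lie between 219 and 296 CPM and every pair of groups overlaps.

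Other regulators of globin transcription and switching were read from a list of 31 genes, 29 of them tested. With Ezh2 loss and no V617F, 4 were higher and 4 lower (median log2 0.04, against -0.01 over all genes, of which 11.5% were higher and 12.2% lower). The median log2 over all genes lay between -0.03 and 0.03 in every comparison. Lin28b, an RNA-binding protein of fetal blood cells, stood out at 8.51 to 19.8 CPM in Ezh2 -/- against 0.0293 to 0.165 CPM in Ezh2 +/+ (log2 7.23, adjusted p = 1.3e-14). Igf2bp3 (0.701 to 1.95 against 0 to 0.0331 CPM) and Hmga2 (1.32 to 3.03 against 0 to 0.182 CPM), other genes of the fetal Lin28b programme, were named after their values were seen because they made up the count. The nuclear factor I gene Nfix was the fourth (log2 0.31, adjusted p = 0.0196, lost without Ezh2 -/- replicate 1 at 0.0710). The lower genes were Mafk, partner of Nfe2 and Bach1 at the locus control region (log2 -0.33 ± 0.08, adjusted p = 0.00461), the heme-sensing repressor Bach1 (-0.41 ± 0.11, 0.00956), the progenitor factor Myb (-0.29 ± 0.08, 0.0110, lost without Ezh2 -/- replicate 3 at 0.0583 and in female libraries alone at 0.0594) and Igf2bp2 (-0.96, 0.0393, which of the 9 fits with a library left out passed only without Ezh2 +/+ replicate 4 or Ezh2 -/- replicate 4). Zbtb7a, another repressor of fetal globin, singled out after its values were seen, was at 109 ± 4.79 CPM in Ezh2 +/+ and 109 ± 1.79 CPM in Ezh2 -/-.

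With V617F the same list gave 4 higher and 1 lower for Ezh2 -/- against Ezh2 +/+, where 13% of all genes were higher and 13.6% lower. Lin28b was again the largest of those higher (22.7 to 39.5 against 0.0456 to 0.109 CPM, log2 8.77), beside Igf2bp3, Hmga2 and the nuclear receptor gene Nr2c1 (0.15). The lower gene was Atf4, a stress-response factor (log2 -0.39 ± 0.09, adjusted p = 0.00306). V617F itself, in Ezh2 +/+, gave 5 higher and 3 lower, where 9.73% of all genes were higher and 13.9% lower. Tal1, a core erythroid factor, was higher (log2 0.24 ± 0.06, adjusted p = 0.00852, lost in female libraries alone at 0.107), as were Lin28a, Sox6, Hmga2 and Lmo2. Myb (-0.53, 9.7e-05), the zinc finger gene Pogz (-0.40, 0.000518) and the looping cofactor Ldb1 (-0.30, 0.00297) were lower. In Ezh2 -/-, V617F gave 8 higher and 6 lower, where 19.1% of all genes were higher and 22.5% lower, among them Gata2 (log2 1.21) and Nfe2 (0.63) higher and Nfia (-0.52) lower. In Ezh2 +/-, where 9.87% of all genes were called, it gave 0 calls, with 9 of 29 at an unadjusted p under 0.05.

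The corepressor list held 24 genes of the complexes that act with Bcl11a, such as the NuRD, LSD1 and histone deacetylase genes. Over all genes, Ezh2 loss gave 11.5% higher and 12.2% lower without V617F, and 13% higher and 13.6% lower with it. Of the 24, 0 were higher and 1 lower without V617F, and 0 were higher and 7 lower with it. Hdac3 (log2 -0.22 ± 0.04, adjusted p = 0.000461) and Hdac1 (-0.28 ± 0.06, 0.00109) were the lowest in adjusted p, and both remained called whichever library was left out. Their means went from 112 ± 4.52 to 95.9 ± 3.54 CPM and from 132 ± 4.29 to 108 ± 4.25 CPM. The list's median log2 was -0.07, against -0.00 over all genes. Without V617F the only call was Ehmt2 (-0.19, adjusted p = 0.00637), which ended in female libraries alone (0.0932).

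Of the genes that flank or share the globin loci, 9 were tested. Of these, 2 were higher and 3 lower with Ezh2 loss without V617F, and 1 was higher and 0 lower with V617F. Over all genes, 11.5% were higher and 12.2% lower without V617F, and 13% higher and 13.6% lower with it. Hbb-b1 and Hbb-bs, counted apart, made up 2 of the 3 lower. Snrnp25, a splicing gene beside the alpha locus, was higher in Ezh2 -/- without V617F (21.8 ± 1.61 to 26.7 ± 2.29 CPM, log2 0.29 ± 0.06, adjusted p = 0.00196). With V617F it was not called (log2 -0.05 ± 0.06, edgeR adjusted p = 0.583). Its interaction of V617F with Ezh2 -/- was -0.34 ± 0.09 (edgeR adjusted p = 0.0203). Rhbdf1, named though its mean log2 CPM was 1.07, was called higher without V617F (log2 1.47, edgeR adjusted p = 0.00490) and with it (1.78, 0.00113). Hbq1b, the theta-type alpha gene, singled out after its values were seen, had 7 to 18 counts per library in Ezh2 +/+ and 15 to 28 in Ezh2 -/-. In CPM these were 0.159 to 0.298 and 0.322 to 0.513, without overlap, and the test did not pass (log2 0.80 ± 0.35, edgeR adjusted p = 0.0969). With V617F they were 0.137 to 0.196 and 0.221 to 0.601 CPM, again not called (log2 0.90 ± 0.37, edgeR adjusted p = 0.0721). With V617F in Ezh2 +/-, 4 of the 9 were lower and 0 higher, where 6.51% of all genes were lower and 3.35% higher. They were Hbq1b (log2 -1.72, edgeR adjusted p = 0.00496, on 1 to 7 counts per library with V617F), Hbb-b1, Hbb-bs and Il9r. Il9r (log2 -3.24, edgeR adjusted p = 0.00166) is named though its mean log2 CPM was -1.17.

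Erythroid maturation genes were read from the reference list of 27 tested genes. With Ezh2 loss without V617F, 5 of 27 were higher and 1 lower, with a median log2 of 0.20, where 11.5% of all genes were higher and 12.2% lower. The lower one was Alas2, the erythroid enzyme that begins heme synthesis (15.3 ± 5.86 to 7.57 ± 1.21 CPM, log2 -1.09 ± 0.33, adjusted p = 0.0162, lost without Ezh2 +/+ replicate 5 at 0.0569 or Ezh2 -/- replicate 2 at 0.0511, in female libraries alone at 0.0790 and without the 3 libraries that stood apart at 0.0568). Among the higher ones was the membrane skeleton gene Sptb (148 ± 26.4 to 266 ± 23.3 CPM, log2 0.84 ± 0.18). With V617F in Ezh2 +/-, 3 were lower and 0 higher: Alas2 (log2 -1.29), the band 3 anion exchanger Slc4a1 (-1.62) and the membrane protein gene Epb42 (-0.77). Over all genes, 6.51% were lower and 3.35% higher in that comparison. Without Ezh2 +/- replicate 5 Alas2 was -0.77 (adjusted p = 0.192) and Slc4a1 -0.89 (0.249). Without the 3 libraries that stood apart Epb42 was -0.77 (0.27). With V617F in Ezh2 -/-, 13 were lower and 0 higher, with a median log2 of -0.34, in a comparison in which 22.5% of all genes were lower and 19.1% higher.

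Adult alpha and adult beta RNA varied together from library to library. With each value centred on its genotype mean, log2 CPM of adult alpha globin and Hbb-b2/Hbb-bt had a Pearson r of 0.921 and a Spearman rho of 0.915 over 29 libraries (permutation p = 1e-05 for both, the smallest that 100000 resamples can give, and 1.5e-05 adjusted over 3 relations). Without the 2 libraries farthest from the median r was 0.915, in the 23 female libraries it was 0.911, and without centring 0.737. Hbb-bs and Hbb-b2/Hbb-bt had an r of 0.952 and a rho of 0.948 (permutation p = 1e-05 for both). Bcl11a and Hbb-b2/Hbb-bt had an r of -0.39 and a rho of -0.39 (permutation p = 0.0378 and 0.0367, the same after adjustment), and an r of -0.38 without the 2 farthest libraries. In female libraries alone the Bcl11a r was -0.27 (permutation p = 0.204) and the rho -0.38 (0.0781). Without centring the Bcl11a r was -0.33 (permutation p = 0.0792) and the rho -0.36 (0.0566). The permutations took no account of the group means removed by centring, so the p-values of centred values are too small. The Bcl11a relation is therefore not established. These values share libraries, depth and, for the beta genes, reads.

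Over the 29 libraries, the genes outside the 8 whose log2 CPM was most like adult alpha globin were Alas2, Hbb-b1 and Hbb-bs, each with a Pearson r of 0.918. For Hbb-b2/Hbb-bt they were Slc4a1 (0.884), Apol11b (0.808) and Hbb-b1 (0.807). For Bcl11a they were Sec24c (0.879), Tmem201 (0.868) and Atxn2l (0.856). Hbb-bh1 was too low for such a comparison. These correlations include the differences between genotypes and are given as a description.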

How the data were processed

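The 29 libraries were analysed from gene-level read counts deposited by the authors, with the gene length in bases beside them, per the file headers. Reads were aligned with STAR to mm9, per the submitters' processing notes. The STAR version, annotation, counting tool, strand setting and treatment of reads that fit several genes were not given in the sources used here, and genes that overlap or copy each other may share reads. Entrez identifiers were matched to RefSeq symbols (18772 of 18834). Total counts were 31.6 to 59.4 M (median 44.6 M).

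Genes were kept with edgeR 4.0.16 (filterByExpr by group, minimum count 10, minimum total 15), which left 13928. TMM scaling and quasi-likelihood tests used 1 fit of all groups with sex as a term and 22 residual degrees of freedom, in R 4.3.3. A call is a Benjamini-Hochberg adjusted p under 0.05 over all tested genes. Log2 CPM for correlations used a prior count of 2. Hbb-y was tested in a fit without the filter. Alternatives were DESeq2 1.42.0, other filters and scalings, no sex term, female libraries, the compared groups alone, a replicate block, each library left out in turn and the 3 libraries that stood apart left out. The filter set by the design matrix was chosen after seeing the data. The tests were checked on simulated data with a single spread for all genes. Changes were set only in genes with more counts on average than Hba-x and Hbb-y, so the check does not cover tests of such low counts. Counting error alone is covered by the intervals and the floors of 3 counts. No 2 replicates agreed within sampling noise (lowest chi-square per degree of freedom 4.71).

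The genes and lists were chosen with earlier results of these data known. Of each list, up to 4 genes per direction with the lowest adjusted p and a mean log2 CPM of at least 2 were named, plus the 3 genes most like Hba-a1, Hbb-b2, Hbb-bh1 and Bcl11a. The comparisons share groups of libraries.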

Additional observations from a re-analysis of the deposited data

Results flagged for a closer look

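A library that lay apart from the rest of its group was looked for in 42 groups of values. For normally spread values chance marks about 1 in 20 groups. That rate does not hold for genes with few counts, where a single library above 0 is always marked. Groups with the same value in every library could not be marked. Hbb-bh1 was found in a single library of 3 groups, at 0.0227 CPM in Ezh2 +/+ replicate 2, 0.0390 CPM in Ezh2 +/- replicate 5 and 0.0456 CPM in V617F Ezh2 +/+ replicate 4, with 0 in the others of each group. These values stand for 1 or 2 counts. Hbb-y was at 0.0484 CPM, or 2 counts, in V617F Ezh2 +/+ replicate 2 and at 0 in the other libraries of that group. Hbb-bs was at 106 CPM in V617F Ezh2 +/- replicate 6, with the next library at 50.8 CPM.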

How the results depend on the processing

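The number of distinct profiles called in Ezh2 -/- without V617F was 1 of the 4 that passed the filter, and 2 of all 6 with no filter on low counts (Hba-x and Hbb-y). For Ezh2 -/- with V617F it was 1, and 0 in female libraries only. For V617F in Ezh2 +/+ it was 1, and 0 in female libraries only and 0 without the 3 libraries that stood apart. For V617F in Ezh2 +/- it was 2, and 1 with no sex term, 0 without those 3 libraries and 0 with the compared groups only. Leaving out 1 library at a time gave 1 to 2, 0 to 1, 0 to 1 and 1 to 2 calls in these 4 comparisons. The sign of Bcl11a turned for V617F in Ezh2 -/- with total counts without TMM factors (0.045) and without the 3 libraries (0.0064), for Ezh2 -/- with V617F (-0.020) and V617F in Ezh2 +/- (-0.0063) with no sex term, and for Ezh2 -/- without V617F in female libraries (0.015). For Ezh2 +/- without V617F and without the 3 libraries it turned for Hba-a1 (-0.087), Hbb-b2 (-0.084) and Hbb-bs (-0.083). With 1 library left out the ranges that crossed 0 were -0.027 to 0.076 (Bcl11a, Ezh2 -/- with V617F), -0.047 to 0.021 (Bcl11a, V617F in Ezh2 -/-), -0.15 to 0.39, -0.20 to 0.41 and -0.27 to 0.45 (Hba-a1, Hbb-b2 and Hbb-bs, Ezh2 +/- without V617F), -0.0068 to 0.16 (Hbb-b2, Ezh2 -/- with V617F) and -1.72 to 1.37 (Hbb-y interaction with Ezh2 -/-). The cause was not tested. DESeq2 called 36 genes for Ezh2 +/- with V617F and 4 without, where edgeR called 1 and 2, and 6 against 0 for the interaction with Ezh2 +/-. Replicate numbers did not pair the libraries, since same-numbered libraries had a median correlation of deviations of -0.01 and others 0.02. With the replicate block, Hbb-b2 in Ezh2 -/- with V617F was -0.033 and Hbb-y in Ezh2 -/- without V617F was 2.50 (adjusted p = 0.0748), no longer called. At this depth Hbb-y and Hbb-bh1 rest on at most 12 and 2 counts a library.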

Other observations

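Hbq1a, the theta-type gene beside Hbq1b, had 15 counts over all libraries and at most 2 in any library. Hbb-y reads were 0.2% of adult beta reads (Hbb-bs and Hbb-bt together, per base of gene length) in Ezh2 -/- and 0.0534% in V617F Ezh2 -/-, against 0.0129% in Ezh2 +/+ and 0.0144% in V617F Ezh2 +/+. The embryonic alpha gene Hba-x thus made up a larger share of its adult counterpart than Hbb-y did in both Ezh2 -/- groups, at 1.14% and 0.878%. These shares are summed over the libraries of a group, depend on the gene lengths in the files and carry no test.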
